A study of Homo sapiens with 20 samples.

Results

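HEK293 is an established human embryonic kidney line that carries adenovirus sequence and that combines features of kidney epithelium with features of neural or adrenal cells. Described here are the genes that separate mock-induced EGFP-ZFP36 cells from the parental HEK293 cells of the same study, with no doxycycline given to either. The comparison takes 10 of the 20 Affymetrix Human Genome U133 Plus 2.0 arrays of the series, 5 of each line. Both lines belong to the Flp-In T-REx system, in which a doxycycline-responsive promoter drives a transgene from 1 engineered integration site. EGFP-ZFP36 cells hold human ZFP36, an RNA-binding protein that promotes decay of mRNAs with AU-rich elements, fused to enhanced green fluorescent protein, and the parental cells hold no such fusion. Both groups received water for 16 h in place of doxycycline, and fluorescent cells were excluded when the mock-induced cells were sorted. The 5 arrays of a group come from cultures of different days, for EGFP-ZFP36 cells also of different passages, and each EGFP-ZFP36 array pools several flasks. No source used here says whether the EGFP-ZFP36 line is 1 clone. The study split the lines at different ratios and grew them for different times, and no source used here says whether the days of the lines were the same, so line, transgene and culture cannot be told apart in any difference below.

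Of 19353 genes with a probe set naming them alone, 10614 had a group mean over 4.5 on the log2 scale in at least 1 of the 2 groups, and these were tested. A level near 2.19, the lowest value of the table, means no signal above background, and 4.5 is the study's own limit for an expressed gene. All differences are EGFP-ZFP36 minus parental on the log2 scale, so that 1 is a doubling. Calls needed an adjusted p under 0.01 in limma, and adjusted p always means the Bonferroni value over all genes tested. A fold written as at least so many times stands where no array of the lower line reached 4.5, and it compares the higher line's mean with 4.5 itself.

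A cell line is recognised by the genes it keeps on and off. Junction proteins and keratins mark epithelial cells, intermediate filaments and peptide hormones mark neural and neuroendocrine cells, and HOX genes mark the position along the body axis from which a cell came. Imprinted genes are read from only the maternal or only the paternal copy, which is set by DNA methylation in the germline. Such states are inherited through cell division, and sublines of a cultured line can carry different ones.

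The 2 lines differed widely. Of the 10614 genes, 2654 (25%) were called, 1446 (13.6%) of them higher in EGFP-ZFP36 cells and 1208 (11.4%) lower. All 2654 had arrays of the 2 groups that did not overlap, against 6788 (64%) of all genes tested. When the arrays were scaled to the poly-A controls spiked into the RNA, 637 genes were called higher and 293 lower, so 68.5% of the calls were upward instead of 54.5%, while the median difference of all genes moved only from −0.0007 to −0.05. The hybridization control and median scalings set that median at −0.07 and −0.06, and with the median scaling the balance turned, with 1361 higher and 1524 lower. A gene list whose median difference lies within 0.07 of 0 therefore has no direction of its own. Among called genes the median size of the difference was 1.09 (quartiles 0.79 and 1.75), with 550 genes over 2 and 99 over 5. The SD within a group was far smaller, with a median over genes of 0.097 in EGFP-ZFP36 and 0.125 in parental arrays.

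Many of the widest differences ran between signal and background. Of the genes called higher, 205 read under 4.5 on every parental array, and of those called lower, 105 read under 4.5 on every EGFP-ZFP36 array. Genes that passed the filter only through the line in which they were higher had means on different sides of 4.5 by selection. They were 378 through EGFP-ZFP36 cells (231 called) and 227 through parental cells (114 called). Among the 10009 genes with both group means over 4.5, 2309 (23.1%) were called, a share little below that of all genes. Such genes are described below as measured in both lines. The members of each gene list that passed the filter through 1 line only can raise the share called, so each list is given with the share called among its tested members, beside 25% of all genes, and among its members measured in both lines, beside 23.1%. In bulk RNA, fewer cells of a kind and less RNA per cell cannot be told apart.

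Each gene is given by its brightest probe set. Of the 165 called genes that are named by rule, 102 had other probe sets on the array. For 31 of them another probe set differed past the threshold in the same direction (adjusted over all 38070 probe sets), for none in the opposite direction, and for 71 no other did. In 39 of these 71 every other probe set read under 4.5 on all 10 arrays, so that the difference rests on 1 probe set with signal. GAL, NEFM, KRT19, LGALS3, ZC3HAV1L and BASP1, described below, are among these 39. In the remaining 32 another probe set read over 4.5 on some array and none passed the threshold. Among these 32 the other probe sets of BMP7 (1.40), HOXB3 (1.70) and CCND2 (0.96) differed by at most 0.52, 0.47 and 0.60. Those of CCN1, ZNF331 and ALDH1A2 differed about as much as the brightest.

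**Figure D1:**
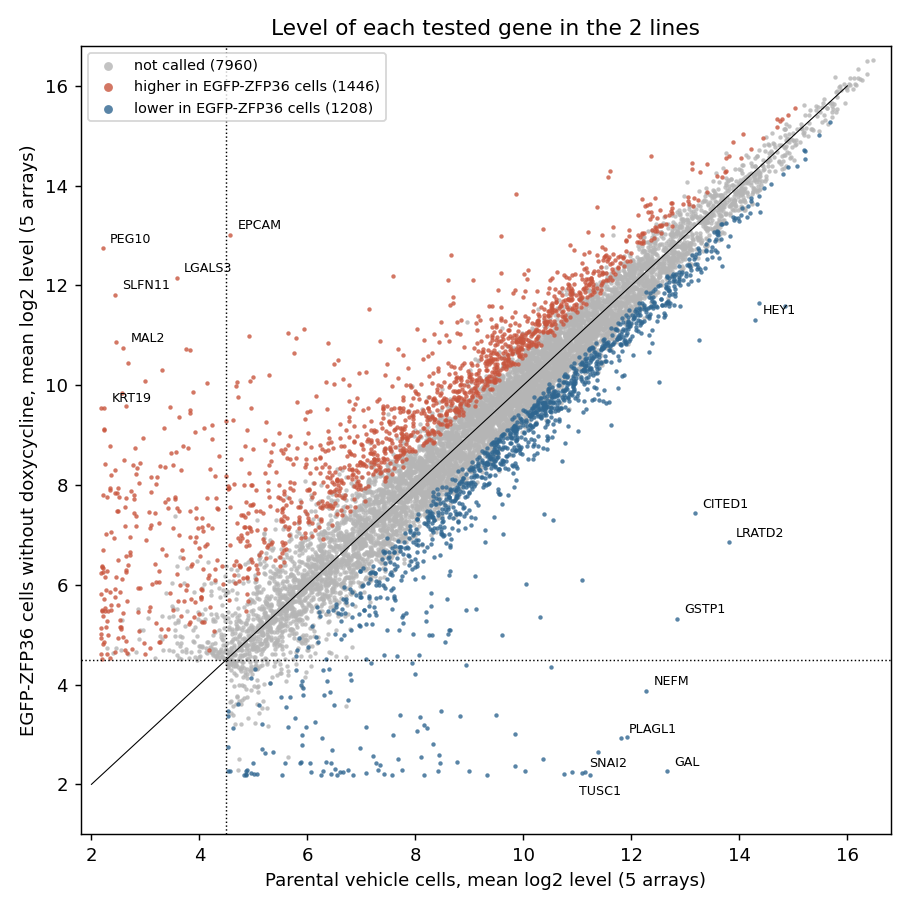
Mean log2 level of each of the 10614 tested genes in parental vehicle cells (x axis, 5 arrays) and mock-induced EGFP-ZFP36 cells (y axis, 5 arrays), with called genes coloured and 4.5 dotted. PEG10, SLFN11 and MAL2 lie at the left edge, at background in parental cells, and GAL and SNAI2 lie at the lower edge, at background in EGFP-ZFP36 cells.

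The arrays of a line were alike. Pairs within a group correlated at 0.990 to 0.997 over the tested genes and pairs between the lines at 0.898 to 0.904. The share of probe sets at the lowest value was 37.5% in EGFP-ZFP36 and 35.9% in parental arrays (exact permutation p = 0.00794, two-sided, the smallest that 5 against 5 arrays can give), and the median of the tested genes was 9.29 and 9.24 (exact permutation p = 0.0159). The hybridization controls (exact permutation p = 0.579), poly-A controls (exact permutation p = 0.889) and the 3′ minus 5′ actin signal (exact permutation p = 0.73) gave differences of 0.07, 0.05 and −0.08. The poly-A controls spread more over parental arrays (SD 0.63) than over EGFP-ZFP36 arrays (SD 0.18). The part of this spread in the smaller number of calls under the poly-A scaling was not tested. EPCAM, MAL2, UBE2QL1, SERPINF1, CAV2, SEMA6D, ZNF331, RUNX3, MAML2, TAPBP, STMN1, VIM and IP6K2 each had 1 array set apart from the other 4 of its line, and for none of them did the lines overlap.

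ZFP36 itself, by its single probe set, read 4.85, 5.67, 5.14, 5.92 and 5.21 on the EGFP-ZFP36 arrays and 2.77, 4.31, 3.26, 3.56 and 3.34 on the parental arrays. The groups did not overlap, as in 64% of all genes tested, but the difference of 1.91 was not called (adjusted p = 0.274). Its Benjamini-Hochberg p in the same limma fit was 6.55e-05, so the missing call does not mean equal levels. Of the 10614 genes tested, 8028 had a Benjamini-Hochberg p under 0.05, so neither trait sets ZFP36 apart from most genes. No source used here says whether that probe set lies in the part of the mRNA that the transgene holds.

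Of 12 HEK293 markers listed, 10 had a probe set naming them alone and 9 passed the filter. KRT8, KRT18 and NES were not tested. Of the 9 tested, all but 1 had a group mean over 4.5 in both lines, where the filter asks for 1 line. Beside the 25% called among all genes, 5 of these 9 were called, 4 higher and 1 lower, with a median difference of −0.004. IGF2BP1, IGF2BP3, SALL2 and LIN28B, fetal RNA-binding proteins and a kidney transcription factor, were not called, with differences of −0.0039, −0.08, −0.29 and −0.47. Vimentin (VIM) was 14.87 ± 0.055 against 13.89 ± 0.22, stathmin (STMN1) 11.41 ± 0.073 against 10.38 ± 0.071, alpha-internexin (INA) 9.52 ± 0.084 against 7.40 ± 0.18 and the light neurofilament NEFL 12.87 ± 0.075 against 12.10 ± 0.11 on the log2 scale (mean ± SD, n = 5 each), all 4 higher in EGFP-ZFP36 cells. VIM lost its call in 9 of the 10 fits that left out 1 array. The exception, NEFM, codes for the medium neurofilament chain and read 4.08, 4.08, 4.06, 3.61 and 3.53 on the EGFP-ZFP36 arrays and 12.32, 12.18, 12.42, 12.22 and 12.24 on the parental arrays. No EGFP-ZFP36 array reached 4.5, so the difference of −8.40 (SE 0.12, adjusted p = 9.46e-12) is at least 219-fold lower, while the second NEFM probe set lay at the lowest value on all arrays. None of the 19 blood cell markers with a probe set passed the filter in either line, and of 22 fibroblast and endothelial markers 3 passed. Of these COL1A1 was lower (6.84 ± 0.26 against 8.56 ± 0.15) and ACTA2 higher (8.69 ± 0.14 against 6.33 ± 0.57), COL3A1 was not called (0.19), and PDGFRA, DCN, LUM, PECAM1 and CDH5 stayed under 4.5 in both lines. COL1A1 and ACTA2 each rest on 1 probe set, since the 3 others of COL1A1 and the 2 others of ACTA2 read under 4.5 on all 10 arrays.

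Epithelial genes were among those that separated the lines most. The list of epithelial identity and junction genes held 28 tested members, of which 11 were higher, 4 lower and 13 not called (53.6% called, 43.5% of the 23 measured in both lines, beside 25% and 23.1% of all genes), with a median difference of 0.54. EPCAM, an adhesion molecule of epithelial and embryonic cells, read 13.01, 13.01, 13.09, 12.99 and 12.99 on the EGFP-ZFP36 arrays and 4.54, 4.58, 4.62, 4.54 and 4.56 on the parental arrays. The parental arrays all stood just over the 4.5 limit, and the EGFP-ZFP36 arrays were 349-fold higher, a difference of 8.45 (SE 0.041, adjusted p = 8.34e-17). KRT19, the keratin of simple and ductal epithelia, read 9.53, 9.75, 9.66, 9.44 and 9.35 on the EGFP-ZFP36 arrays and 2.23, 2.25, 2.25, 2.19 and 2.25 on the parental arrays, which put every parental array at background, and its second probe set lay at the lowest value on all arrays of both lines. MAL2, a membrane protein needed for transport to the apical surface, read 10.68, 10.72, 10.74, 10.69 and 10.92 on the EGFP-ZFP36 arrays and 2.60, 2.60, 2.50, 2.63 and 2.63 on the parental arrays. The differences in log2 level were 7.31 (SE 0.072, adjusted p = 2e-13) for KRT19, at least 33.1-fold, and 8.16 (SE 0.055, adjusted p = 3.52e-15) for MAL2, at least 76.2-fold.

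Junction proteins of several kinds lay on the same side. MARVELD2, tricellulin, which seals the corners where epithelial cells meet, read 10.96, 10.92, 10.92, 11.01 and 10.88 on the EGFP-ZFP36 arrays and 5.56, 6.04, 5.44, 6.51 and 5.41 on the parental arrays, a difference of 5.14 (SE 0.19, adjusted p = 2.55e-07) with signal in both lines. GJB2, the gap junction protein connexin 26, was at background on every parental array, with 8.45 ± 0.11 in EGFP-ZFP36 cells and 2.90 ± 0.41 in parental cells in log2 level (mean ± SD, n = 5 each), at least 15.4-fold higher. CLDN1 (claudin 1) differed by 4.31, MARVELD3 by 3.28, the protease inhibitor SPINT2 by 3.53, the tricellular receptor LSR by 1.51, occludin (OCLN) by 1.21 and plakophilin 2 (PKP2) by 1.11. Lower in EGFP-ZFP36 cells were desmoglein 2 (DSG2, −0.96), connexin 43 (GJA1, −0.93), CLDN12 (−0.93) and desmocollin 2 (DSC2, −0.74). E-cadherin (CDH1), the adherens junction protein that defines most epithelia, was not called, with levels of 4.85 ± 0.27 in EGFP-ZFP36 cells and 5.89 ± 0.64 in parental cells, nor were desmoplakin (DSP, −0.02) and ZO-1 (TJP1, 0.62).

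Mesenchymal genes did not mirror the epithelial ones. Of 23 tested, 11 were higher, 2 lower and 10 not called (56.5% called, 50% of the 20 measured in both lines), with a median difference of 0.81. SNAI2 (Slug), a repressor of epithelial genes that is active in neural crest and mesenchyme, was the member that differed most and lay on the lower side. It read 2.28, 2.19, 2.30, 2.20 and 2.19 on the EGFP-ZFP36 arrays and 11.32, 11.07, 11.36, 10.77 and 10.93 on the parental arrays, a difference of −8.86 (SE 0.11, adjusted p = 1.51e-12), at least 96.1-fold lower. SPARC was also lower (−1.44). The other repressors of epithelial genes that were called were higher, namely ZEB1 (0.73) and TWIST1 (0.81), while ZEB2 (0.46) and N-cadherin (CDH2, −0.02) were not called. PRRX1, a transcription factor of limb mesenchyme, was 6.16 ± 0.51 against 2.25 ± 0.044 in log2 level, at least 3.16-fold higher. CCN1 and CCN2, secreted matrix proteins whose genes answer to YAP and TEAD, differed by 2.74 and 3.02, fibronectin (FN1) by 0.90 and ACTA2, smooth muscle actin, by 2.36. The ACTA2 call was lost in 8 of the 10 fits that left out 1 array.

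**Figure D2:**
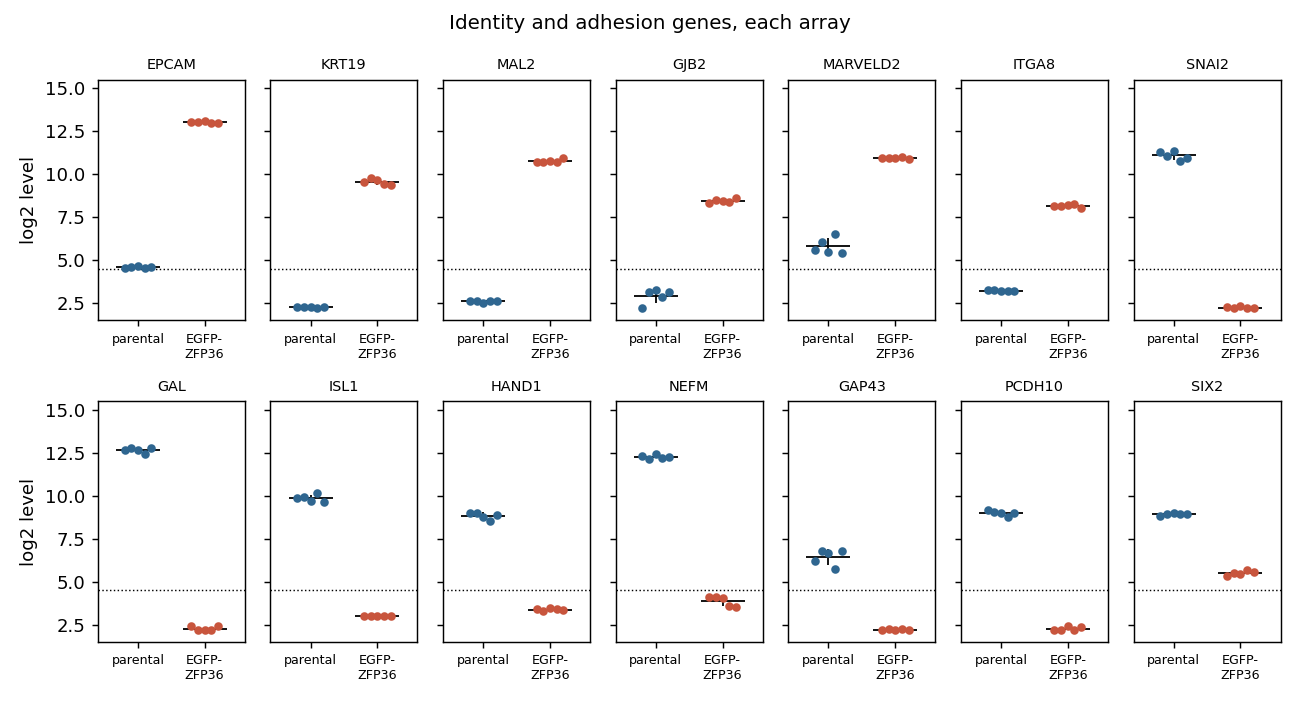
Log2 level of 14 identity and adhesion genes on each of the 5 parental vehicle (blue) and 5 mock-induced EGFP-ZFP36 (red) arrays; bars give the mean and SD, and the dotted line marks 4.5. In each panel the arrays of the 2 lines do not overlap, and of the 8 lower genes only SIX2 stays over 4.5 in EGFP-ZFP36 cells.

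Genes of neuroendocrine and neural crest cells included the largest difference on the lower side. GAL codes for galanin, a neuropeptide of sympathetic and endocrine neurons, and read 2.39, 2.19, 2.19, 2.19 and 2.39 on the EGFP-ZFP36 arrays and 12.68, 12.77, 12.67, 12.45 and 12.78 on the parental arrays. The difference was −10.40 (SE 0.075, adjusted p = 6.93e-15), at least 288-fold lower, by the brighter of 2 probe sets. The other read 2.28 ± 0.075 against 2.97 ± 0.42 and differed by −0.69, which was not past the threshold. Of 27 tested members of the neural crest, adrenal and neuroendocrine list, 7 were lower, 9 higher and 11 not called (59.3% called, 33.3% of the 15 measured in both lines), and the median difference was −0.05. ISL1, a LIM-homeobox factor of motor and sympathetic neurons, read 3.02, 3.02, 3.02, 3.02 and 3.02 against 9.87, 9.92, 9.70, 10.14 and 9.63 in log2 level in EGFP-ZFP36 against parental cells, at least 40.8-fold lower. HAND1, a basic helix-loop-helix factor of heart and sympathetic lineages, read 3.40, 3.27, 3.47, 3.42 and 3.33 against 9.02, 8.98, 8.75, 8.52 and 8.89, at least 20.2-fold lower. The synaptic vesicle calcium sensor SYT1 was at least 4.46-fold lower, with 2.24 ± 0.053 in EGFP-ZFP36 cells and 6.66 ± 0.41 in parental cells (mean ± SD, n = 5 each). On the higher side were SYT11 (3.56), SNAP25 (3.15), RIMS2 (3.09), GATA3 (2.78) and the granule protein CHGB (2.22), whereas its relative CHGA differed by −1.16 and GATA2 by −1.07. Members of the list were thus called in both directions, within the granins and the GATA factors as well.

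The neuronal cytoskeleton list had 38 members tested, 14 higher, 3 lower and 21 not called (44.7% called, 42.4% of the 33 measured in both lines), with a median difference of 0.24. GAP43, a growth cone protein, was at background in EGFP-ZFP36 cells, at least 3.85-fold lower, with 2.21 ± 0.017 in EGFP-ZFP36 cells and 6.44 ± 0.46 in parental cells. BASP1, a growth cone protein of the same functional class, went the other way and read 11.26, 11.07, 11.13, 11.20 and 10.99 on the EGFP-ZFP36 arrays and 5.86, 5.94, 6.71, 5.15 and 6.06 on the parental arrays, a difference of 5.18 (SE 0.22, adjusted p = 1.36e-06). DPYSL3 and KIF1A, a collapsin response protein and the motor of synaptic vesicle precursors, differed by 4.22 and 2.61. DCLK1 (2.43), UCHL1 (1.54), MAP1B (1.46) and DPYSL2 (1.38) were higher too, and the actin bundler FSCN1 was lower (−0.97). Tau (MAPT, 0.14) and peripherin (PRPH, 0.28) were not called.

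Adhesion molecules were called in both directions, often between background and a clear signal. Among 19 cadherins and protocadherins, 3 were higher, 4 lower and 12 not called (36.8% called, 29.4% of the 17 measured in both lines), with a median difference of 0.10. PCDH19, a protocadherin of the developing brain, read 10.06, 9.90, 10.14, 10.14 and 10.15 on the EGFP-ZFP36 arrays and 5.04, 4.84, 4.94, 5.06 and 4.85 on the parental arrays, which is 35.1-fold higher. PCDH10 was the reverse, with 2.19, 2.19, 2.40, 2.20 and 2.34 against 9.16, 9.06, 9.01, 8.76 and 9.00 in EGFP-ZFP36 against parental cells, at least 22.6-fold lower. PCDH17 was at least 5.11-fold lower, PCDH18 differed by −1.23 and CELSR3 by −0.98, and FAT3 by 3.86. Beta-catenin (CTNNB1, −0.39) and alpha-catenin (CTNNA1, 0.43), which link cadherins to actin, were not called.

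Of 37 immunoglobulin-like and other adhesion molecules tested, 10 were higher, 7 lower and 20 not called (45.9% called, 40% of the 30 measured in both lines), with a median difference of 0.17 that became −0.12 with the mean of all probe sets of a gene. SLITRK5, a synaptic adhesion protein, read 2.54, 2.42, 2.57, 2.44 and 2.57 against 10.35, 10.37, 10.34, 10.28 and 10.45 in EGFP-ZFP36 against parental cells, at least 58-fold lower. NECTIN3, which pairs with other nectins at adherens junctions, read 2.23, 2.23, 2.48, 2.23 and 2.63 against 9.92, 9.71, 10.03, 9.73 and 9.82, at least 40.6-fold lower. The tight junction protein CLMP was at least 9.51-fold higher and CD24, a surface mucin, at least 7.88-fold higher. AMIGO2, CD44, CNTN1, NRCAM, JAM2 and NCAM1 were also higher, by 2.85, 1.58, 1.54, 1.38, 1.35 and 1.22, and FLRT3 (−2.42), TENM1 (−1.92) and ALCAM (−0.95) were lower.

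Integrins and focal adhesion genes were called higher 12 times and lower 4 times of 42 tested (38.1% called, 34.2% of the 38 measured in both lines, median difference 0.30). ITGA8, the nephronectin receptor of kidney mesenchyme, read 8.17, 8.14, 8.18, 8.26 and 8.05 on the EGFP-ZFP36 arrays and 3.25, 3.23, 3.21, 3.20 and 3.20 on the parental arrays, at least 12.7-fold higher. Its ligand nephronectin (NPNT) was 9.15 ± 0.12 against 4.09 ± 0.55 in log2 level, a difference of 5.06 (SE 0.22, adjusted p = 1.81e-06), with some parental arrays under 4.5. ITGB8 was at least 4.57-fold higher, ITGA4 differed by 2.74 and the shared beta subunit ITGB1 by 1.12. The caveolae proteins CAV1, CAV2 and CAVIN1 differed by 3.06, 2.94 and 2.20, and FERMT1, which activates integrins, by 3.15. Lower were PARVB (−1.98) and ILK (−0.97), partners in one adhesion complex, and the tetraspanins TSPAN7 (−1.13) and TSPAN6 (−1.02). Vinculin (VCL, 0.33), talin (TLN1, 0.15) and paxillin (PXN, −0.24) were not called.

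Matrix genes followed a similar split. Of 45 laminins, proteoglycans and other matrix genes, 13 were higher, 7 lower and 25 not called (44.4% called, 38.5% of the 39 measured in both lines, median difference 0.07). SPOCK3 and MMP16, a testican and a membrane-bound metalloproteinase, were at least 15.1-fold and at least 4.77-fold lower, while SPOCK1 and MATN2, another testican and a matrilin, were at least 3.36-fold and at least 6.49-fold higher. The 4 other probe sets of MMP16 showed no difference past the threshold, and lay between −0.003 and 0.07. LAMB1, LAMA4 and agrin (AGRN), parts of basement membrane, differed by 2.04, 1.93 and 1.26, and GPC3 by −1.69. Of 19 collagen chains tested, 6 were higher and 3 lower (47.4% called, 42.9% of the 14 measured in both lines, median difference 0.14). COL14A1, COL4A4 and COL21A1 were at least 11.7-fold, at least 9.46-fold and at least 7.71-fold higher from background, and COL5A2 differed by 2.66, whereas COL1A1 was lower (−1.73). The 3 other probe sets of COL1A1 read under 4.5 on every array and differed by −0.07 to 0.004. Of 42 axon guidance genes, 11 were higher and 5 lower (38.1% called, 37.5% of the 40 measured in both lines, median difference 0.19). PLXNA2 and NRP1, semaphorin receptor subunits, differed by 2.90 and 2.37, and EFNB2, an ephrin ligand, by 1.94. These are named for the size of their difference, and the 5 lower members each differed by less in size.

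Imprinted genes included the largest difference on the higher side and 1 of the 5 largest on the lower side. Of 71 listed, 57 had a probe set naming them alone and 29 were tested, of which 9 were higher, 4 lower and 16 not called (44.8% called, 28.6% of the 21 measured in both lines, beside 25% and 23.1% of all genes), with a median difference of 0.09. PEG10, a paternally expressed gene derived from a retrotransposon, read 12.69, 12.72, 12.71, 12.77 and 12.84 on the EGFP-ZFP36 arrays and 2.22, 2.19, 2.22, 2.19 and 2.23 on the parental arrays. Every parental array lay at background, and the difference of 10.53 (SE 0.043, adjusted p = 1.3e-17) is at least 303-fold higher. The second PEG10 probe set also differed past the threshold, by 6.36. SGCE, epsilon-sarcoglycan, which lies beside PEG10 on chromosome 7 and shares its imprinted control region, read 11.30, 11.28, 11.17, 11.28 and 11.17 on the EGFP-ZFP36 arrays and 9.12, 9.26, 9.09, 9.02 and 9.17 on the parental arrays, a difference of 2.11 (SE 0.054, adjusted p = 6.16e-09) with signal in both lines. PPP1R9A and TFPI2, of the same imprinted cluster, differed by 1.86 (SE 0.058, adjusted p = 4.64e-08) and 3.18 (SE 0.13, adjusted p = 8.5e-07). The parental mean of TFPI2 was 4.34, under the 4.5 limit. MEST, paternally expressed and also on chromosome 7, was at least 1.95-fold higher, with 5.47 ± 0.37 in EGFP-ZFP36 cells and 2.20 ± 0.013 in parental cells.

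PLAGL1, a paternally expressed zinc finger regulator of growth on chromosome 6, was the reverse of PEG10 and read 2.19, 3.03, 3.03, 3.03 and 3.33 on the EGFP-ZFP36 arrays and 11.67, 11.81, 11.63, 12.00 and 11.96 on the parental arrays. The difference was −8.89 (SE 0.18, adjusted p = 4.95e-10), at least 159-fold lower. HYMAI, the non-coding RNA that starts at the imprinted promoter inside PLAGL1, read 2.21, 2.21, 2.21, 2.21 and 2.21 against 4.97, 5.39, 4.94, 4.73 and 5.30, at least 1.48-fold lower, so both transcripts of the locus were under 4.5 on every EGFP-ZFP36 array. FAM50B, a paternally expressed gene elsewhere on chromosome 6, read 3.34, 2.96, 3.12, 3.10 and 3.42 against 8.52, 7.98, 8.07, 8.19 and 8.01, at least 12.6-fold lower. GRB10, an adaptor that restrains insulin signalling, differed by −0.75, and its call was lost in 2 of the 10 fits that left out 1 array. On the higher side were ZNF331 (4.02, with 4.19 by its second probe set), ZNF597 (1.72), RB1 (1.30) and INPP5F (0.78, lost in 3 of the 10 fits, and with its 2 other probe sets at −0.64 and −0.11). Not called were IGF2R (−0.38), UBE3A (0.46), GNAS (1.10), WT1 (−0.06), KCNQ1OT1 (−0.05) and PHLDA2 (−0.28). MEG3, DLK1, SNRPN, NDN, PEG3 and NNAT stayed near the lowest value in both lines.

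**Figure D3:**
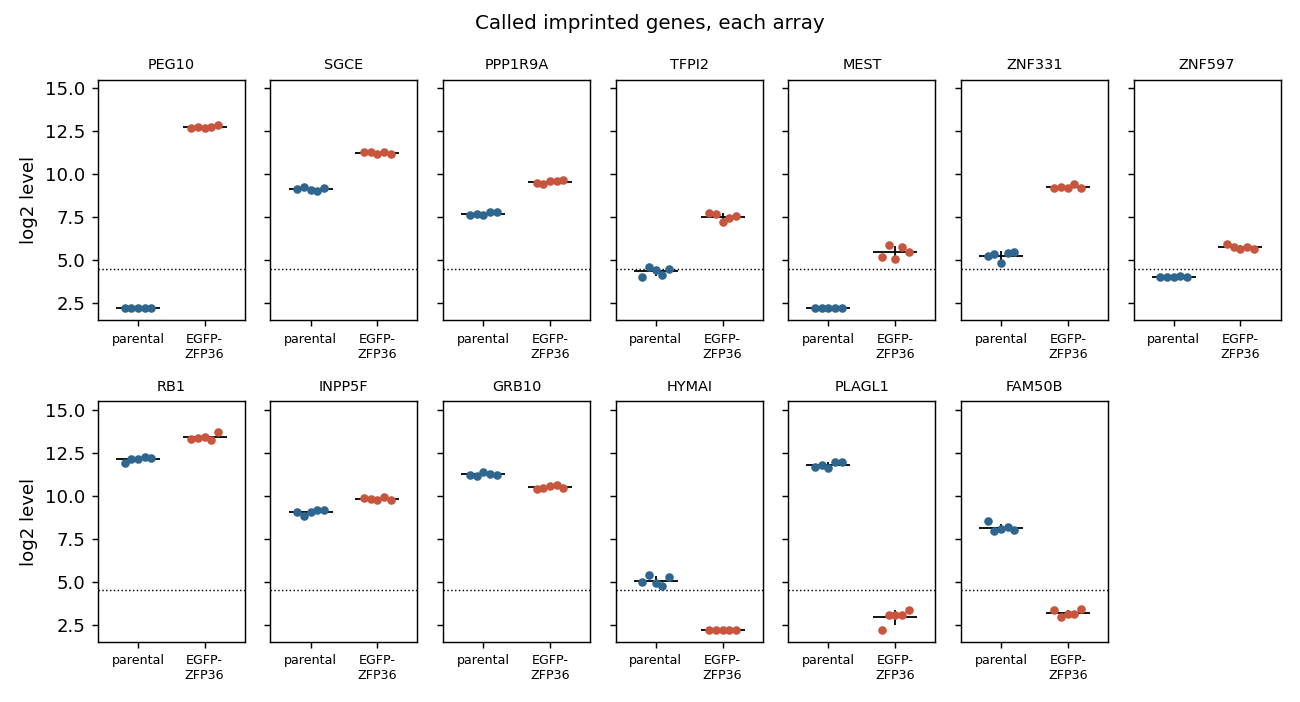
Log2 level of the 13 called imprinted genes on each parental vehicle (blue) and mock-induced EGFP-ZFP36 (red) array, with mean, SD and the 4.5 limit dotted. PEG10 and PLAGL1 run between background and high levels in opposite directions, whereas SGCE, PPP1R9A, RB1, INPP5F and GRB10 have signal in both lines.

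The sequence before the annotated start is shown for PLAGL1, HYMAI, FAM50B and MEST, chosen among the imprinted genes that ran between signal and background. The RefSeq table used here (GRCh38.p14) held all of them. ZNF597, under 4.5 on every parental array and over it on every EGFP-ZFP36 array, was not looked up. Imprinted control rests on methylation of CG dinucleotides, which are in capitals. Each run is the 250 bases before the annotated start, 5′ to 3′ in the direction of the gene. PLAGL1 is chr6:144064600-144064849 on the minus strand and holds 21 CG dinucleotides, HYMAI is chr6:144008260-144008509 on the minus strand with 32, FAM50B is chr6:3849123-3849372 on the plus strand with 18, and MEST is chr7:130485925-130486174 on the plus strand with 9. An annotated start need not be the imprinted promoter of a gene. The PLAGL1 run lies apart from the HYMAI run, although HYMAI is the RNA that starts at the imprinted promoter. Whether the FAM50B and MEST runs lie at an imprinted promoter was not examined. No methylation was measured here.

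PLAGL1: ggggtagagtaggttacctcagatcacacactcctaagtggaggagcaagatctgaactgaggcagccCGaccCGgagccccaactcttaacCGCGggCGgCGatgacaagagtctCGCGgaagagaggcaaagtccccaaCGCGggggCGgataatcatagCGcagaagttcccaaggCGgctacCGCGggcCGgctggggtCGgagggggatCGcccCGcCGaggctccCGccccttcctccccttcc

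HYMAI: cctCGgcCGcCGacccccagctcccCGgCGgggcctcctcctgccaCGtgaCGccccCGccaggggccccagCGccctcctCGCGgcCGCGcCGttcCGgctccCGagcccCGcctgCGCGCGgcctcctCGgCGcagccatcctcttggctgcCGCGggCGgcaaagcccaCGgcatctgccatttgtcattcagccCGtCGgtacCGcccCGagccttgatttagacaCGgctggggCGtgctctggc

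FAM50B: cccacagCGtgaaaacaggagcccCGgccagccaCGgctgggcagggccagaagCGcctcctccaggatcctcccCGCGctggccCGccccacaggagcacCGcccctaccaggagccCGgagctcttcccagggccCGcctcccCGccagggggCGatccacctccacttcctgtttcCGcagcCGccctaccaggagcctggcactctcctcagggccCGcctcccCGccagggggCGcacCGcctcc

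MEST: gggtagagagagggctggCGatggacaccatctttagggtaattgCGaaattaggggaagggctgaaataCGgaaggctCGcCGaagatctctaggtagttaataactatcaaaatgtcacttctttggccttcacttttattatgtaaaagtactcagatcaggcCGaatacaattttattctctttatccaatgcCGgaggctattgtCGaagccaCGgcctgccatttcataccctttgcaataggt

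Across the comparison, 8845 of the tested genes had a promoter in that table. The median number of CG dinucleotides in the 250 bases was 22 over these genes, 17 over the 163 called genes whose parental arrays were all under 4.5 and 18 over the 81 whose EGFP-ZFP36 arrays were all under 4.5. At least 10 of them stood before 88.7% of the tested genes, 76.1% of the first set and 79% of the second, beside 51.9% of all 27305 promoters. These are descriptions of gene sets chosen by their levels and carry no test.

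Among developmental regulators the HOX genes lay mostly on the higher side. Of 29 HOX cluster genes tested, 9 were higher, 2 lower and 18 not called (37.9% called, 40.7% of the 27 measured in both lines), with a median difference of 0.75. HOTAIR, the antisense RNA of the HOXC cluster, read 9.89, 10.13, 10.08, 9.86 and 10.01 on the EGFP-ZFP36 arrays and 6.52, 6.85, 6.83, 6.60 and 7.02 on the parental arrays, a difference of 3.23 (SE 0.097, adjusted p = 3.13e-08), and the array does not settle strand beyond its probe design. HOXB2 and HOXB3 differed by 2.45 and 1.70, HOXA11-AS by 2.06, HOXC6, HOXC13 and HOXC4 by 1.50, 1.09 and 1.07, and HOXB6 by 0.75. The 2 lower ones were the most 5′ members of their clusters, HOXD13 (−1.58) and HOXB13 (−1.22). Levels of both groups were over 4.5 for 27 of the 29, so these differences were of degree.

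Kidney development genes were called in both directions. Of 39 tested, 14 were higher, 6 lower and 19 not called (51.3% called, 45.5% of the 33 measured in both lines, median difference 0.57). CITED1, a transcriptional co-factor of uninduced nephron progenitors, read 7.37, 7.69, 7.10, 7.50 and 7.53 on the EGFP-ZFP36 arrays and 13.25, 13.25, 13.11, 13.20 and 13.11 on the parental arrays, a difference of −5.75 (SE 0.096, adjusted p = 5.74e-11), which is 53.7-fold lower with signal in both lines. SIX2, the transcription factor that maintains those progenitors, read 5.31, 5.53, 5.44, 5.67 and 5.56 against 8.85, 8.94, 9.00, 8.96 and 8.95, 10.8-fold lower, and EYA1, its partner, differed by −1.55 and SALL3 by −2.83. Higher were ITGA8 and NPNT, described above, GATA3 (2.78) and GFRA1 (at least 1.57-fold), a ureteric bud factor and a receptor for glial cell line-derived neurotrophic factor, and BMP7 (1.40), IRX3 (1.63) and podocalyxin (PODXL, 0.90). WT1 (−0.06), SALL1 (0.16) and LRP2 (0.23) were not called.

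Of 100 SOX, FOX, PAX, GATA, T-box and related factors, 23 were higher, 18 lower and 59 not called (41% called, 32.9% of the 85 measured in both lines, median difference 0.08). The ETS factors ETV5 and ETV1 and the Runt factors RUNX3 and RUNX2 were higher. ETV5 read 8.18, 8.21, 7.96, 8.31 and 8.38 against 2.24, 2.73, 2.24, 2.37 and 2.24 in EGFP-ZFP36 against parental cells, at least 13.1-fold. RUNX3 read 8.11, 7.87, 7.83, 7.79 and 7.88 against 2.30, 2.44, 2.44, 2.24 and 2.30, at least 10.5-fold. ETV1 and RUNX2 differed by 4.75 and 3.39, and FOXQ1, NR2E1 and FOXA1 by 4.26, 3.66 and 2.12. Lower beside ISL1, HAND1 and SIX2 were the forebrain factor LHX8 (at least 9.59-fold), OTX2 (−3.82), FOXF1 (−2.74), ZIC1 (−2.68) and MESP1 (−1.92). PAX6 (−0.54), PAX3 (0.16), SOX9 (0.06) and GATA4 (0.03) were not called. Of 23 early embryo and oncofetal genes, 7 were higher and 4 lower (47.8% called, 38.9% of the 18 measured in both lines, median difference −0.004). TRIM71, a ubiquitin ligase of early development, was 4.40 ± 0.18 against 8.94 ± 0.23 in log2 level and PROM1 (CD133) 6.25 ± 0.57 against 2.21 ± 0.060. DNMT3B, a de novo DNA methyltransferase, differed by −1.61, DNMT3A (−0.78) was not called, and SOX2 and KLF4 differed by 0.79 and 1.20. Among 13 cancer-testis and germline genes, 2 were higher and 4 lower (46.2% called, 40% of the 10 measured in both lines, median difference −0.35). MAGEB2 read 2.46, 2.73, 2.73, 2.58 and 2.73 against 11.38, 11.36, 11.42, 11.08 and 11.67, at least 118-fold lower, and DMC1, the meiotic recombinase, was at least 9.05-fold lower.

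In the signalling pathways, calls fell on a few members of each. Of 43 Wnt genes, 8 were higher and 1 lower (20.9% called, 17.9% of the 39 measured in both lines, below the 25% of all genes, median difference 0.03). LGR5, the R-spondin receptor of stem cells, read 10.27, 10.49, 10.53, 10.43 and 10.39 against 6.54, 6.81, 6.81, 6.17 and 6.14, a difference of 3.93 (SE 0.14, adjusted p = 1.59e-07), and the secreted inhibitors DKK1 and SFRP1 differed by 2.30 and 1.89. WNT5B was at least 3.27-fold higher and the receptor FZD10 at least 1.42-fold lower. AXIN2 (−0.34) and LEF1 (−0.06), common targets of the pathway, were not called. The TGF-beta and BMP list had 6 higher and 3 lower of 42 (21.4% called, 22.5% of the 40 measured in both lines, median difference 0.34), led by the decoy receptor BAMBI (1.96) and the ligand BMP7 (1.40). Also higher were SMAD9 (1.28), SMAD7 (1.21) and TGFBR2 (1.29, lost in 8 of the 10 fits that left out 1 array). The 3 lower members of that list each differed by less in size than these.

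Of 25 Notch genes, 6 were higher and 3 lower (36% called, 33.3% of the 24 measured in both lines, median difference −0.11). The ligand JAG1 read 10.50, 10.59, 10.43, 10.56 and 10.44 on the EGFP-ZFP36 arrays and 6.77, 6.64, 6.38, 6.57 and 6.49 on the parental arrays, a difference of 3.93 (SE 0.072, adjusted p = 1.51e-10). Its pathway's target genes were called in opposite directions, HES1 by 2.15 (SE 0.079, adjusted p = 2.77e-07) and HEY1 by −2.99 (SE 0.071, adjusted p = 2.79e-09). HEY1 read 11.31, 11.41, 11.21, 11.44 and 11.17 against 14.34, 14.27, 14.17, 14.46 and 14.24 in EGFP-ZFP36 against parental cells, with signal on all arrays. Receptors NOTCH1 (0.12) and NOTCH2 (−0.28) were not called. Among 42 genes for FGF and other receptor tyrosine kinases and their ligands, 13 were higher and 5 lower (42.9% called, 27.6% of the 29 measured in both lines, median difference 0.50). Among the ligands PDGFD was at least 4.6-fold, TGFA at least 1.73-fold and betacellulin (BTC) at least 1.54-fold higher from background, and FGF9 and PDGFA differed by 3.09 and 2.04. Lower were VEGFC (−2.59), ANGPT1 (−2.31) and the receptor MERTK (−2.06), while EGFR (0.52), FGFR1 (0.06) and ERBB2 (0.28) were not called. The 22 Hedgehog and retinoid genes had 3 higher and 2 lower (22.7% called, 15% of the 20 measured in both lines, median difference 0.08, and −0.11 when the _s_at and _x_at probe sets, which can read related transcripts, were dropped). In the retinoid branch ALDH1A2, which makes retinoic acid, differed by 1.46, CYP26A1, which degrades it, by −1.66, and RDH10 by −1.60. HHAT (1.62) and RBP7 (1.97) lost their calls in 9 and 5 of the 10 fits that left out 1 array.

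Of 24 YAP and TEAD targets and factors, 7 were higher and 1 lower (33.3% called, 28.6% of the 21 measured in both lines, median difference 0.42), with RBMS3 at least 3.57-fold higher and VGLL3 and PTPN14 differing by 2.18 and 1.26. YAP1 (0.32) and TEAD1 (0.16) themselves were not called. AMOT, angiomotin, which holds YAP at junctions and belongs to no list here, read 4.79, 4.90, 4.94, 5.23 and 5.08 on the EGFP-ZFP36 arrays and 9.74, 9.57, 9.41, 9.67 and 9.66 on the parental arrays, 24.6-fold lower. Of 37 MHC, antigen presentation and surface immune genes, 10 were higher and 2 lower (32.4% called, 28.1% of the 32 measured in both lines, median difference 0.42). ERAP2, a peptidase that trims antigens, and the class II chain HLA-DPB1 were at least 21.6-fold and at least 26.1-fold higher from background, TAPBP (tapasin) at least 8.19-fold higher, and the immunoproteasome subunit PSMB10 differed by −1.85. B2M (0.66) and TAP1 (0.30) were not called. The cell cycle list stayed near the background, with 7 higher and 3 lower of 43 (23.3% called, 23.3% of the 43 measured in both lines, median difference 0.24). The inhibitors CDKN2B and CDKN1B differed by 2.69 and 1.52 and cyclin D2 (CCND2) by 0.96, MCM2, a helicase subunit, by −1.03, and MKI67 (0.44) and PCNA (0.31) were not called. Of 19 metallothionein and metal transport genes, 2 were higher and 6 lower (42.1% called, 38.9% of the 18 measured in both lines, median difference 0.04). The zinc importers SLC39A4 and SLC39A10 differed by −3.26 and −1.42 and haem oxygenase (HMOX1) by −2.93. SLC30A10 (2.61) and SLC30A4 (0.94) lost their calls in 9 and 7 of the 10 fits that left out 1 array.

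Among the widest differences were genes outside these lists. SLFN11, a Schlafen protein that stalls replication forks under damage, read 11.83, 11.72, 11.93, 11.68 and 11.93 on the EGFP-ZFP36 arrays and 2.50, 2.31, 2.54, 2.31 and 2.54 on the parental arrays, at least 160-fold higher. LGALS3, galectin 3, read 12.22, 12.21, 12.13, 12.17 and 12.05 on the EGFP-ZFP36 arrays and 3.51, 3.64, 3.67, 3.64 and 3.44 on the parental arrays, at least 202-fold higher, and its binding partner LGALS3BP, with signal in both lines, differed by 5.17 (SE 0.12, adjusted p = 2.23e-09). OCIAD2 and the carboxypeptidase inhibitor LXN were at least 82.2-fold and at least 61.2-fold higher. GSTP1, a glutathione transferase, read 4.76, 5.99, 5.39, 4.93 and 5.51 on the EGFP-ZFP36 arrays and 12.95, 12.81, 12.95, 12.60 and 12.93 on the parental arrays, 185-fold lower with every EGFP-ZFP36 array still over 4.5. LRATD2 was 123-fold lower on the same terms, with 6.86 ± 0.18 in EGFP-ZFP36 cells and 13.80 ± 0.10 in parental cells. TUSC1, ZC3HAV1L, TMEM47 and ZNF738 were lower by at least 106-fold, at least 172-fold, at least 84.5-fold and at least 76.4-fold, and PNMA8A differed by −8.90. SERPINF1, which codes for pigment epithelium-derived factor, and ALDH1L2, a mitochondrial folate enzyme, differed by −4.96 and −3.61. DEPP1, ZSCAN18 and UBE2QL1, read over 4.5 on every array, differed by 6.07, 5.41 and 4.91. Several of these differences rest on 1 probe set, since the other probe sets of LGALS3 (0.00), ZC3HAV1L (−0.56), LRATD2 (−1.06 and 0.00) and ALDH1L2 (−0.20 and −0.19) were not past the threshold. All of these others lay under 4.5 on every array except the first of LRATD2, which read 4.55 ± 0.16 in EGFP-ZFP36 cells and 5.61 ± 0.42 in parental cells.

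The 5 parental arrays with doxycycline, which the comparison did not use, gave a second reading of the parental line, set against the same EGFP-ZFP36 arrays. They read 2.19 to 2.46 for PEG10, 4.39 to 5.43 for EPCAM, 2.19 to 2.25 for KRT19, 12.51 to 12.98 for GAL, 11.34 to 11.95 for PLAGL1, 10.93 to 11.50 for SNAI2 and 12.15 to 12.38 for NEFM in log2 level. For HYMAI they read 3.93 to 5.05 with a mean of 4.48, just under the 4.5 limit. Over the 166 named genes the size of the doxycycline minus vehicle difference in parental cells had a median of 0.058 and reached 0.65 at most. With these arrays as the reference all 166 kept their direction and 162 were called. Of the 2654 called genes, 2313 were called in the same direction.

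The differences were uneven along and between chromosomes. The median difference of the genes tested ran from −0.37 on chromosome 11 (569 genes) and −0.31 on chromosome 3 (610 genes) to 0.34 on chromosome 13 (210 genes) and 0.53 on chromosome 21 (110 genes). Computed on single EGFP-ZFP36 arrays against the parental mean, these medians kept their sign, from −0.44 to −0.34 for chromosome 11, from −0.36 to −0.27 for chromosome 3, from 0.32 to 0.37 for chromosome 13 and from 0.53 to 0.64 for chromosome 21. Single parental arrays stayed between −0.03 and 0.04 on the same chromosomes. On chromosome 21, 47 genes were called higher and 8 lower (50% called), and on chromosome 3, 48 higher and 149 lower (32.3% called). DNA copy number was not measured here.

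**Figure D4:**
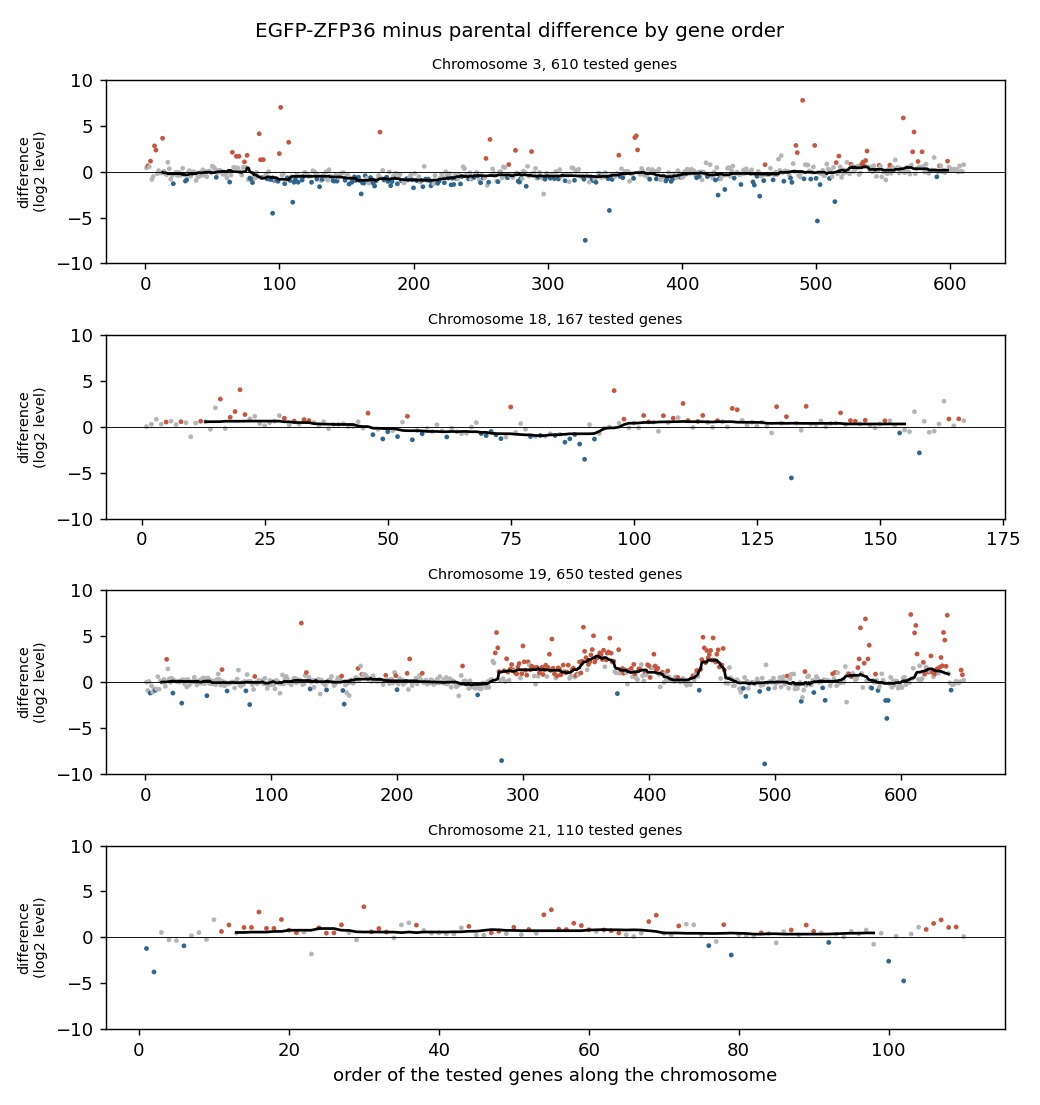
Difference in log2 level (EGFP-ZFP36 minus parental) of tested genes in their order along chromosomes 3, 18, 19 and 21, red where called higher, blue where called lower and grey where not called, with the running median of 25 neighbouring genes as a black line. The line stays below 0 over a long stretch of chromosome 3 and rises in separate blocks on chromosome 19, up to 2.83.

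The strongest block lay among the zinc finger genes of chromosome 19, which code for repressors of the KRAB family and stand in clusters of near neighbours. Over 10046 windows of 25 neighbouring tested genes the median difference had a 5% point of −0.53 and a 95% point of 0.66. The highest window, from ZNF146 to ZNF571, had a median of 2.83, with 23 of its 25 genes called higher and none lower. By name 22 of the 25 belong to zinc finger genes, among them the antisense RNAs ZNF529-AS1, ZNF790-AS1 and ZNF793-AS1, which code for no such protein. The window from XRCC1 to ZNF229 had a median of 2.39 with 20 higher and 1 lower, and the window from DPY19L3-DT to LSR, with only 4 zinc finger genes, 1.51 with 20 higher and none lower. In the first window ZFP82 read 9.80, 10.13, 9.94, 9.64 and 9.79 on the EGFP-ZFP36 arrays and 3.76, 3.76, 4.36, 3.76 and 3.76 on the parental arrays, at least 41-fold higher, and ZNF793 read 9.22, 9.25, 9.37, 9.31 and 9.27 against 4.51, 4.35, 4.37, 4.33 and 4.87, a difference of 4.80 (SE 0.096, adjusted p = 4.3e-10). In the second, ZNF404 differed by 4.88 (SE 0.17, adjusted p = 1.48e-07), and in the third FXYD5, an adhesion-modifying subunit of the sodium pump, by 4.69 (SE 0.16, adjusted p = 1.65e-07). Over the whole of chromosome 19, 88 of 158 zinc finger genes were higher and 1 lower, with a median difference of 1.40, against 82 higher and 31 lower of 492 other genes, with a median of 0.12. Zinc finger genes of the other chromosomes, 219 in all, had 30 higher and 18 lower, with a median of −0.01. The only lower one on chromosome 19 was ZNF738. All these counts go by gene name, so they take in antisense RNAs such as ZNF793-AS1 and pseudogenes such as ZNF271P. Paralogs of this family have similar sequences, so a probe set can read more than the gene it names.

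The sequences before 2 genes of the highest window are shown because both genes read at or near background in parental cells and clearly over it in EGFP-ZFP36 cells. CG dinucleotides are again in capitals. ZFP82 is chr19:36418645-36418894 on the minus strand with 31 CG dinucleotides and ZNF793 is chr19:37506689-37506938 on the plus strand with 10. Over the 77 chromosome 19 zinc finger genes called higher with a promoter in the table the median was 16, beside 22 over all tested genes. At least 10 stood before 89.6% of the 77, beside 88.7% of all tested genes. The zinc finger genes of chromosome 19 without a call were not counted separately.

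ZFP82: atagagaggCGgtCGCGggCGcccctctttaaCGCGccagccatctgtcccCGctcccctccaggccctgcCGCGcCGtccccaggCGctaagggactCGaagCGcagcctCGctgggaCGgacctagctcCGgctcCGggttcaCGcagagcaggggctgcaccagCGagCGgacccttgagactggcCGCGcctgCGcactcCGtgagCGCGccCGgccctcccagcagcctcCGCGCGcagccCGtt

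ZNF793: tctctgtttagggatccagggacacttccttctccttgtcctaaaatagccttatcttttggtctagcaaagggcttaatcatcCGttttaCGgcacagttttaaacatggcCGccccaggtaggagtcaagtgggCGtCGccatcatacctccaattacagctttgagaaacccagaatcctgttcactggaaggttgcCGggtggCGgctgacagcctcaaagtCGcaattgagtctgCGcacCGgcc

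The lowest windows were on chromosomes 3 and 18. From CDC25A to USP4 on chromosome 3 the median was −0.97, with 16 of 25 genes lower and 1 higher, and from IFRD2 to UQCC5 it was −0.95, with 15 lower and none higher. On chromosome 18, from DSC3 to TPGS2, it was −0.95, with 14 lower and 1 higher. Of the 75 genes of these 3 windows 4 differed by more than 2 in size, and 2 of those ran against the block. P4HTM, a prolyl hydroxylase named here with its values in view, read 7.66 ± 0.29 in EGFP-ZFP36 cells and 3.37 ± 0.024 in parental cells, a difference of 4.30, inside the first window on chromosome 3. KLHL14, named in the same way, differed by 2.16 inside the window on chromosome 18, where MOCOS, which matures molybdenum enzymes, differed by −3.53. ELP2, a subunit of the tRNA-modifying Elongator complex, read 9.64, 9.60, 9.55, 9.77 and 9.66 on the EGFP-ZFP36 arrays and 11.59, 11.52, 11.57, 11.40 and 11.53 on the parental arrays, a difference of −1.88 (SE 0.055, adjusted p = 2.56e-08), and its 4 other probe sets, all with signal, lay between −0.77 and −0.05 and were not past the threshold. HYAL2, a hyaluronidase, and MAPKAPK3, a stress kinase, differed by −1.77 and −1.65, ZNF589 by −2.43 and IP6K2 by −1.57. None of the genes of these 3 windows read under 4.5 on every EGFP-ZFP36 array, and P4HTM was the 1 gene under 4.5 on every parental array, whereas 5 genes of the highest chromosome 19 window read under 4.5 on every parental array.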

How the data were processed

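Total RNA of sorted HEK293 cells was hybridised to Affymetrix Human Genome U133 Plus 2.0 arrays. Per the submitters' processing notes and the methods, the authors normalised the arrays with GCRMA (no source used here gives its version). What they deposited are log2 levels between 2.19 and 16.6. Signals at the lowest value have no order, and the number of arrays limits precision.

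Of 50441 probe sets, 38070 name 1 gene in the platform annotation, 1423 several, 10886 none and 62 are controls. The gene numbers of 38018 were found in the RefSeq gene table (GRCh38.p14), with 0 changes of symbol. Where several probe sets named a gene (9830 genes), the brightest by its mean over all 20 arrays stood for it. Groups came from the labels. R 4.3.3 with limma 3.58.1 (lmFit, then eBayes, no covariate) fitted the 10 arrays, and the fit was tested on simulated data. The threshold for a call, a Bonferroni-adjusted p under 0.01, is the study's. Whether groups of single values differed was tested with an exact permutation test, two-sided. The rest used Python 3.11.15 (pandas 2.3.3, numpy 2.4.6, matplotlib 3.10.9, scipy 1.17.1). The p-values measure the spread between cultures of 1 line each, not between lines.

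Members and gene lists were chosen with earlier results of these data known. The 28 lists were written from textbook knowledge. Named by rule are ZFP36, the 10 largest differences each way among called genes with groups that do not overlap, the 8 largest each way with every array over 4.5, up to 5 called members of each list, every called imprinted gene and the 3 leading members of each extreme window of neighbouring genes. Further members of the lists, and P4HTM and KLHL14, are named with their values in view. Promoters were matched by gene number for 124 of the 166 named genes. Alternatives were other tests, thresholds, reference arrays, probe set choices, filters and scalings, a replicate block, and leaving out each array.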

Additional observations from a re-analysis of the deposited data

Results flagged for a closer look

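In 258 groups of 5 arrays (the named genes in each line, where the group mean was over 4.5), 13 groups (5.04%) had 1 array whose gap to the nearest other exceeded Dixon's critical share of the group's range for 5 values. Chance flags about 1 in 20 groups, so this number is near what chance gives. The values are given as measured.

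Among EGFP-ZFP36 arrays, replicate 3 read 13.09 for EPCAM, above 12.99 to 13.01 on the others, and replicate 5 read 10.92 for MAL2, above 10.68 to 10.74. Replicate 4 read 9.35 for SEMA6D (others 8.97 to 9.07) and 9.44 for ZNF331 (others 9.18 to 9.26). Replicate 1 read 8.11 for RUNX3 (others 7.79 to 7.88). Below the others were replicate 2 for MAML2, at 6.14 (others 6.68 to 6.86), and replicate 5 for TAPBP, at 7.32 (others 7.54 to 7.61). Among parental arrays, replicate 5 read 5.45 for UBE2QL1 (others 5.22 to 5.25) and 10.26 for STMN1 (others 10.39 to 10.43). Replicate 4 was the low one for 4 genes, at 9.68 for SERPINF1 (others 10.38 to 10.56), 8.28 for CAV2 (others 8.72 to 8.87), 13.50 for VIM (others 13.91 to 14.06) and 9.58 for IP6K2 (others 9.87 to 9.88). The part of any 1 array in these values was not tested.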

How the results depend on the processing

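No named gene changed direction under any alternative run. The balance of calls turned with median centring, from 1446 higher and 1208 lower to 1361 and 1524. List medians were recomputed under the scalings and probe set choices. Those of the Wnt (0.03) and metal transport (0.04) lists turned negative under each of the 3 scalings and with the mean of all probe sets, and the latter also turned those of the adhesion molecules, the early embryo genes and the HEK293 markers. The Hedgehog and retinoid median turned when the _s_at and _x_at probe sets were dropped. The 2654 called genes (1446 higher, 1208 lower) became 975 (535 and 440) with a separate spread for each line, 930 (637 and 293) when scaled to the poly-A controls, and 8028 (4023 and 4005) at a Benjamini-Hochberg adjusted p under 0.05. Without a filter on low values 1753 were called (774 lower), and with all 20 arrays in 1 model 1884 were called lower. Leaving out 1 array gave 2060 to 2529 calls, 1148 to 1346 higher and 888 to 1183 lower. The share of higher calls was 54.5%, and 47.2% after centring each array on the median of the tested genes. Requiring both group means over 4.5, an alternative chosen after seeing the data, gave 2330 calls. The remaining alternatives stayed within 1.5 times the main counts. Of the 166 named genes 69 lost their call with a separate spread, 21 each with no filter and with the poly-A scaling, and 4 to 8 in each fit that left out 1 array. ZFP36, the only named gene without a call, passed at a Benjamini-Hochberg adjusted p under 0.05. The cause of these changes was not tested.

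The titles number the replicates of both groups 1 to 5, and a fit with the replicate number as a block called 1140 genes (729 higher, 411 lower), with 25 of the 166 named genes losing their call. The correlation of the deviations of same-numbered arrays from the group means was 0.103, 0.018, −0.020, 0.043 and 0.122. Of the 5 EGFP-ZFP36 arrays, 2 correlated best with the parental array of their own number. These few pairs cannot decide whether same-numbered arrays share a day, and no source used here says so. The main fit, which has no block, does not allow for such a pairing. How far a difference between the lines holds for other isolates is limited by the single line on each side, and signals at the lowest value limit every fold that is given as a bound.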
